A study of Mus musculus with 12 samples.

Results

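The comparison of CIDEA KO with WT spheroids at 24 h rests on 4 of the 12 mRNA libraries of the series, 2 from each genotype. WT was R1, a line of mouse embryonic stem cells (ESCs), and the KO was derived from R1 by CRISPR-Cas9 with a pair of guides that removed the *Cidea* locus (genotype Cidea -/-). Every KO library was made from the same clone, so that loss of *Cidea* and any other difference of this clone from its parent cannot be told apart. Both genotypes were kept as ESCs with 10% FBS and LIF, and were then grown as 3D spheroids with growth factor-reduced Matrigel, 15% FBS and no LIF, and collected after 24 h. The labels describe the spheroids as embedded in the gel, while the methods of the study give, for molecular work, seeding on a layer of gel under medium that also holds some. RNA was read with a stranded, poly(A)-based mRNA kit. The remaining 8 libraries were ESCs at 0 h and spheroids at 48 h of the same genotypes. They entered the fit, where all groups share one estimate of the spread, and so shape every p-value at 24 h. Their levels are used only to place the 24 h values. The comparison addresses which transcripts differed between the genotypes early into spheroid formation. The study describes the libraries of a group as independent samples and biological replicates, without saying what was separate between them, and the p-values measure the spread between such samples of the same clone.

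CIDEA sits on the surface of lipid droplets, where it holds neighbouring droplets together and lets the lipid of the smaller droplet flow into the larger. It is best known from brown fat cells. In the stem cell spheroids used here, withdrawal of LIF in a basement membrane gel takes cells out of the naive state of the early epiblast, through a formative state in which DNA methyltransferases and factors such as *Otx2* and *Pou3f1* are switched on, and towards a polarised epithelium that opens a lumen. Nodal and FGF signals act on this transition, and *Lefty1* and *Lefty2*, targets of Nodal, feed back as its secreted inhibitors.

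The 4 libraries held between 33.4 and 35.6 M estimated counts. One library stood apart. KO replicate 1 had 15472 genes with a count when all libraries were brought to the same depth, against 19280 in KO replicate 2 and 17661 and 19380 in the WT replicates. Of the genes with at least 10 counts in each of the other 3 libraries, 5.80% (827 of 14267) had no count at all in KO replicate 1, against 0.613% in WT replicate 1, 0.0829% in KO replicate 2 and 0.0529% in WT replicate 2. The KO replicates also differed more from each other than the WT replicates at every level of expression. Their median absolute log2 difference was 2.11 for genes below 1 count per M (CPM) and 0.114 for the highest genes, against 1.03 and 0.0784 between the WT replicates. Markers of the labelled pluripotent cells were high in both genotypes. The summed level of the 12 core pluripotency genes was 6094 and 6279 TPM in KO and 6074 and 6220 TPM in WT, while the marker lists of endoderm, trophectoderm, mesoderm, neuroectoderm, germ cells and fibroblasts each summed to at most 149 TPM in any library. In bulk RNA of this kind, fewer cells of a type and less RNA per cell cannot be told apart.

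**Figure D1:**
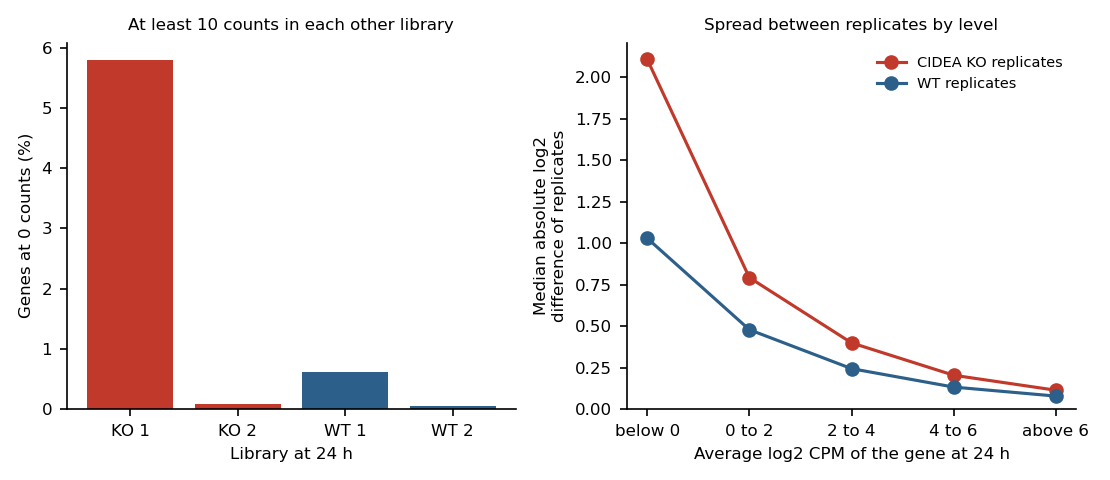
The left bars give, for each library at 24 h, the percentage of genes with no count among genes with at least 10 counts in each of the other 3 libraries. The right panel gives the median absolute log2 difference between the 2 replicates of each genotype for genes in 5 classes of average log2 CPM. KO replicate 1 reached 5.80% and the other libraries stayed at or below 0.613%, and the KO replicates differed more than the WT replicates in each class.

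Most genes did not pass the test at 24 h. Of the 17424 genes tested with edgeR's quasi-likelihood test, 255 (1.46%) had an adjusted p under 0.05 in KO against WT spheroids, 78 of them higher (0.448%) and 177 lower (1.02%). Without KO replicate 1 the count was 223 (1.28%), 83 higher (0.476%) and 140 lower (0.803%), and 142 genes (0.815%) were called both ways, 38 higher (0.218%) and 104 lower (0.597%). Of the 177 lower genes, 59 lay on a single stretch of chromosome 10, which is described separately. Outside it, 196 of 17250 genes (1.14%) were called, 78 higher (0.452%) and 118 lower (0.684%), and 44 of these differed by more than 2-fold. Without KO replicate 1, 179 genes outside the stretch passed the test, 83 higher and 96 lower. The 2 sets shared 99 genes (50.5% of the first and 55.3% of the second), 38 higher (0.22%) and 61 lower (0.354%), together 0.574% of genes tested, and every one of the 255 genes had the same sign in both fits. The levels of the KO and WT libraries did not overlap in 39% of all genes tested, 17.6% higher and 21.4% lower in KO, so that a gap between the groups was common. The count rested on single libraries. It was 2193 outside the stretch without KO replicate 2, where KO replicate 1 alone stood for the KO, 30 without WT replicate 1 and 74 without WT replicate 2, and 9 when only the 4 libraries at 24 h were fitted. Outside the stretch, 24 genes (0.139% of those tested) were called in the same direction whichever of the 4 libraries was left out, 20 lower and 4 higher. These fits share libraries with one another and are not independent of each other.

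**Figure D2:**
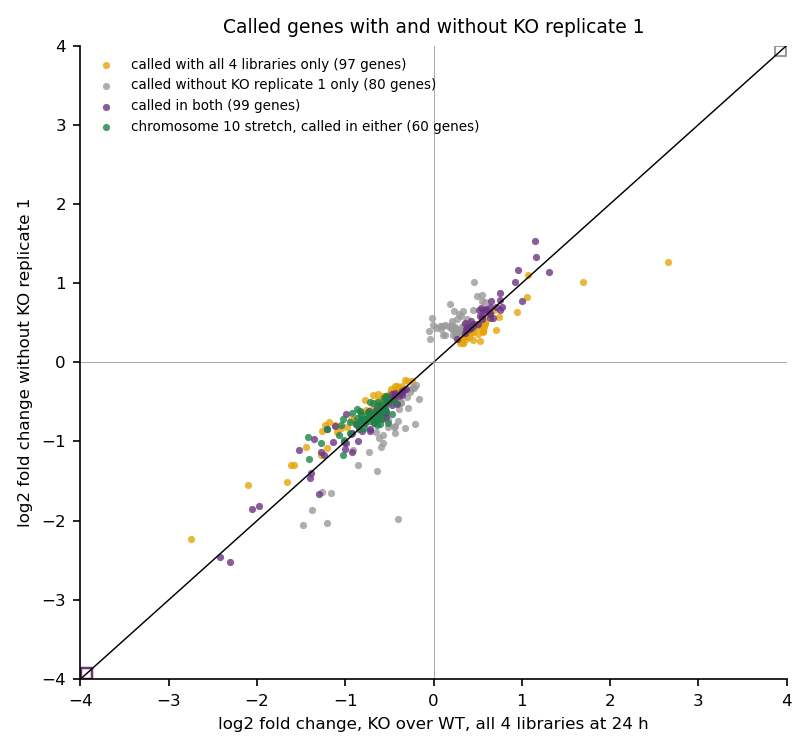
Each point is a gene called in the fit with all 4 libraries at 24 h, in the fit without KO replicate 1, or in both. The x axis gives the log2 fold change of KO over WT with all 4 libraries and the y axis the value without KO replicate 1, with open squares at the corners for values beyond the axes. The 99 genes called in both fits outside the chromosome 10 stretch lie near the diagonal, and the genes of the stretch lie together below 0.

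The targeted gene was read first. *Cidea* (chromosome 18, 67343604 to 67367785, GRCm38) had no count in either KO library, which allows up to 0.0893 CPM at 3 counts, and 117 and 46 counts in the WT libraries, or 3.48 and 1.29 CPM. It was thus at least 26.7-fold lower in KO spheroids (adjusted p = 0.0151). The WT replicates themselves differed by more than 2-fold, and the call was lost without WT replicate 1 (adjusted p = 0.2). Other genes of the lipid droplet machinery did not pass the test. Of the 34 tested genes of lipid droplet storage and lipolysis, *Cidea* alone was called (2.94%, against 1.02% of all genes tested called lower). The median log2 fold change of the list was 0.00 against -0.02 over all genes tested. *Plin2*, which coats most droplets, stood at 8.61 and 6.32 CPM in KO and 8.35 and 9.03 CPM in WT (log2 fold change -0.22 ± 0.23 SE, adjusted p = 0.747). *Plin3* stood at 76.8 and 87.4 against 95.9 and 97.5 CPM (adjusted p = 0.368), and *Pnpla2*, the lipase that begins triglyceride breakdown, at 29.3 and 23.6 against 31.8 and 28.2 CPM (adjusted p = 0.673). None of the 32 genes of cholesterol and fatty acid synthesis was called by edgeR, with a median of -0.01, 5 at an unadjusted p under 0.05 and 1 called by DESeq2.

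Some called genes handle lipoproteins or lipids outside the droplet. They were gathered from among the calls and not from a list, so that no share called can be given or set against the droplet list. *Lpl*, the secreted lipase that releases fatty acids from lipoprotein triglycerides, stood at 70.9 and 53 CPM in KO and 28.8 and 33.2 CPM in WT, with both KO libraries above both WT libraries. It rose by a log2 fold change of 1.0 (± 0.16 SE, adjusted p = 0.00232, and 0.0195 without KO replicate 1). *Apoe*, the lipoprotein component that receptors bind, stood at 98.5 and 113 CPM in KO and 189 and 186 CPM in WT. It fell by 0.82 on the log2 scale (SE 0.09, adjusted p = 8.83e-05) and stayed called whichever library was left out. *Vldlr*, a receptor for apolipoprotein E-rich particles, was near its floor in both genotypes, with 1 count in each KO library and 18 and 24 counts in the WT libraries, a ratio of WT over KO of 20.8 (95% counting interval 5.4 to 177, adjusted p = 0.00508). *Cpt1c*, a brain-type relative of the enzyme that brings fatty acids into mitochondria, stood at 58.5 and 40.2 against 31.5 and 28.9 CPM and was called only with KO replicate 1 in the fit (adjusted p = 0.0191 with it and 0.259 without it). It was the only call among 24 genes of fatty acid oxidation (4.17%, against 0.448% of all genes tested called higher), whose median was -0.07. *Fads6*, named as a fatty acid desaturase, stood at 9.61 and 11 against 5.68 and 5.18 CPM (adjusted p = 0.045). *Lpl* lost its call without WT replicate 1 (adjusted p = 0.0968), as did *Fads6* (0.268), and *Fads6* also without WT replicate 2 (0.224). *Apoe* and *Vldlr* were chosen for mention after their values were seen.

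The largest fall of a well-expressed gene was that of *Grb10* (chromosome 11, 11930508 to 12038683), an imprinted adaptor that restrains insulin and growth factor receptors. It stood at 18.1 and 17.0 CPM in KO and 92.8 and 95.2 CPM in WT. The genotypes were far apart and the replicates close, and *Grb10* was 5.34-fold lower in KO spheroids (log2 fold change -2.42 ± 0.13 SE, adjusted p = 1.17e-09). The call held in each of the 15 alternatives. Other imprinted genes moved in both directions. Of 29 tested members of the list, 2 were called higher and 2 lower (6.90% each, against 0.448% and 1.02% of all genes tested), with a median of 0.17 that was 0.04 without KO replicate 1, 0 without KO replicate 2 and 0.07 without WT replicate 1. *Nnat*, a small membrane protein of neural and endocrine cells, rose from 7.4 and 7.74 CPM in WT to 11.9 and 21.8 CPM in KO (adjusted p = 0.0229, and 0.000814 without KO replicate 1), but not without KO replicate 2 (0.0809), WT replicate 1 (0.304) or WT replicate 2 (0.148). *Nnat*, *Gnas* and *Peg3* were also called at 0 h and 48 h, in the same direction as at 24 h. Their log2 fold changes were 1.83, 0.37 and -0.54 at 0 h and 1.81, 0.36 and -0.47 at 48 h. At 24 h *Gnas*, the stimulatory G protein subunit, stood at 226 and 215 against 179 and 172 CPM, and *Peg3*, a zinc finger gene, at 71.6 and 82.3 against 104 and 111 CPM. Both calls were lost without KO replicate 1 (adjusted p = 0.118 and 0.13). Without WT replicate 1 or WT replicate 2, *Grb10* was the only imprinted gene called.

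**Figure D3:**
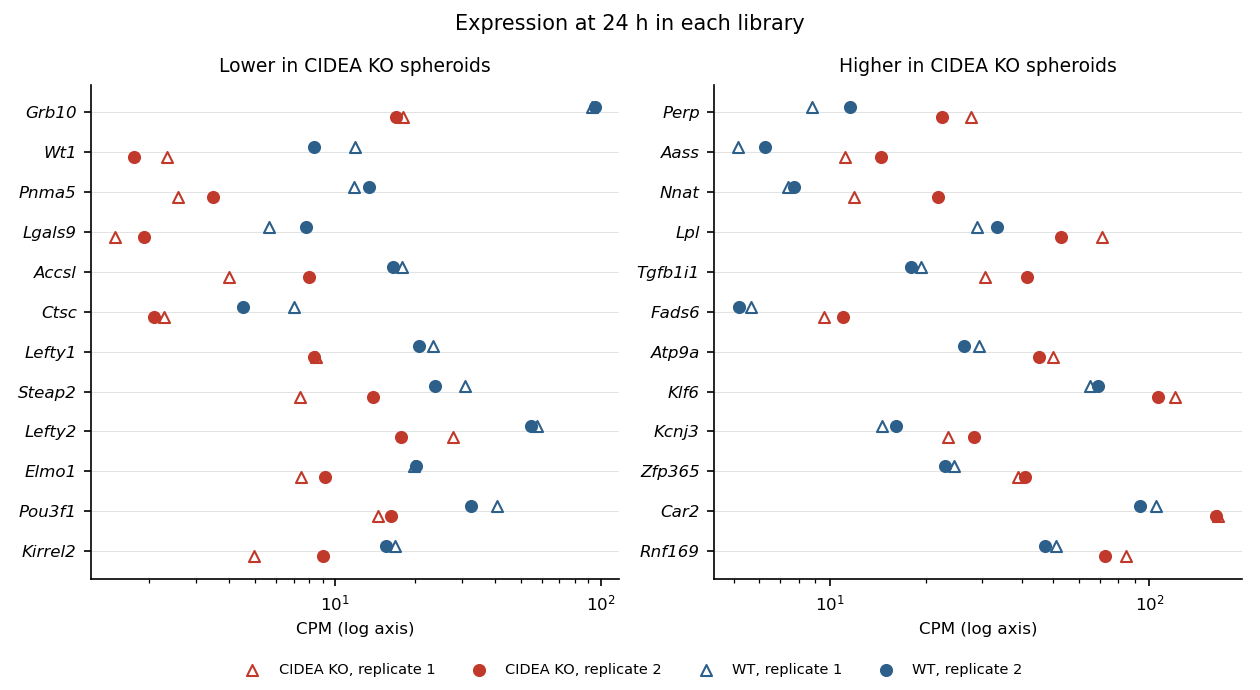
The panels give the CPM in each library at 24 h, on a log axis, of the 12 genes with the largest fall and the 12 with the largest rise among genes called with and without KO replicate 1, outside the chromosome 10 stretch, whose average log2 CPM was 1 or more. Red marks are KO and blue marks WT libraries, with open triangles for replicate 1. *Grb10* stands at 17.0 to 18.1 CPM in KO and 92.8 to 95.2 CPM in WT, and for every gene shown the KO libraries do not overlap the WT libraries.

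Both *Lefty* genes, which encode the secreted inhibitors of Nodal, were lower in KO spheroids. *Lefty1* stood at 8.49 and 8.38 CPM in KO and 23.4 and 20.8 CPM in WT, a 2.62-fold difference (log2 fold change -1.39 ± 0.13 SE, adjusted p = 9.47e-06) that was called whichever library was left out. *Lefty2*, its neighbour on chromosome 1, stood at 27.8 and 17.7 CPM in KO and 57.9 and 54.5 CPM in WT (-1.30 ± 0.17 SE, adjusted p = 0.00345). The call was lost without WT replicate 1 (adjusted p = 0.0547). With average transcript lengths as offsets the value for *Lefty2* shrank to -0.56 (adjusted p = 0.632). *Nodal*, the ligand itself, lies on the chromosome 10 stretch and stood at 41.4 and 45.9 against 63.6 and 64.7 CPM (-0.56 ± 0.14 SE, adjusted p = 0.0535). The co-receptor *Tdgf1* (-0.15), the factor *Foxh1* (0.04) and *Smad2* (0.15) did not pass the test. On the BMP side *Id2*, a direct target of BMP signals that blocks differentiation factors, rose from 147 and 147 CPM in WT to 200 and 203 CPM in KO (0.45 ± 0.09 SE, adjusted p = 0.0172), and its call was lost without WT replicate 1 (0.222) or WT replicate 2 (0.13). *Id1* and *Id3* stood at 0.36 ± 0.13 and 0.25 ± 0.10 on the log2 scale and did not pass. In all, 1 of 26 tested Nodal and BMP genes was called higher (3.85%, against 0.448% of all genes tested) and 2 lower (7.69%, against 1.02%), and the list's median was 0.03. Without WT replicate 1 only *Lefty1* was called.

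Genes of the formative state were lower in KO spheroids, with 4 of 20 called lower (20.0%, against 1.02% of all genes tested), none higher, and a median log2 fold change of -0.24. *Pou3f1*, an octamer-binding factor of the formative and early neural epiblast, stood at 14.6 and 16.3 CPM in KO and 40.6 and 32.4 CPM in WT, a 2.37-fold difference (-1.24 ± 0.15 SE, adjusted p = 9.2e-05). Each KO library was below each WT library, and the call held whichever library was left out. *Lef1*, a DNA-binding partner of beta-catenin, stood at 15.8 and 12 against 26.6 and 26 CPM (-0.92 ± 0.19 SE, adjusted p = 0.0165). The de novo DNA methyltransferases *Dnmt3a* and *Dnmt3b* fell by less. *Dnmt3a* stood at 378 and 372 against 490 and 473 CPM (-0.36 ± 0.07 SE, adjusted p = 0.00678) and *Dnmt3b* at 461 and 455 against 596 and 559 CPM (-0.34 ± 0.07 SE, adjusted p = 0.00988). In ESCs at 0 h *Lef1* (-2.03) and *Dnmt3a* (-0.31) were already called lower in KO, while *Dnmt3b* (-0.26) and *Pou3f1* (0.70) were not called. At 48 h none of these genes was called. *Otx2*, the head organiser factor, did not pass at 127 and 143 against 147 and 153 CPM (adjusted p = 0.540). *Fgf5*, a late marker of primed cells, was low in all libraries, at 3.34 and 1.85 against 8.0 and 5.54 CPM, and passed only without KO replicate 1 (adjusted p = 0.127 with it and 0.0455 without it). The count for the list was 5 without KO replicate 1, 1 (*Pou3f1*) without WT replicate 1 and 3 without WT replicate 2.

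Among 15 naive pluripotency factors 2 were called higher (13.3%, against 0.448% of all genes) and none lower, and the list's median was 0.04. *Klf4*, a Krüppel-like factor downstream of LIF, stood at 136 and 137 CPM in KO and 99.3 and 105 CPM in WT (0.42 ± 0.09 SE, adjusted p = 0.0172). *Zfp42*, the classical ESC marker Rex1, stood at 598 and 596 against 481 and 466 CPM (0.33 ± 0.07 SE, adjusted p = 0.0219), and this call was lost without KO replicate 1 (adjusted p = 0.0627). Neither passed without WT replicate 1 (adjusted p = 0.304 and 0.2) or without WT replicate 2 (0.0847 and 0.183). *Klf4* and *Zfp42* were already called higher in KO ESCs at 0 h, by 0.47 and 0.31 on the log2 scale. *Nanog*, at 241 and 277 against 235 and 261 CPM (0.06 ± 0.08 SE), *Esrrb* (0.05 ± 0.07 SE) and *Tfcp2l1* (-0.23 ± 0.12 SE) did not pass the test. The core factor *Pou5f1* stood at 1415 and 1307 against 1292 and 1302 CPM (0.07 ± 0.07 SE, adjusted p = 0.723).

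**Figure D4:**
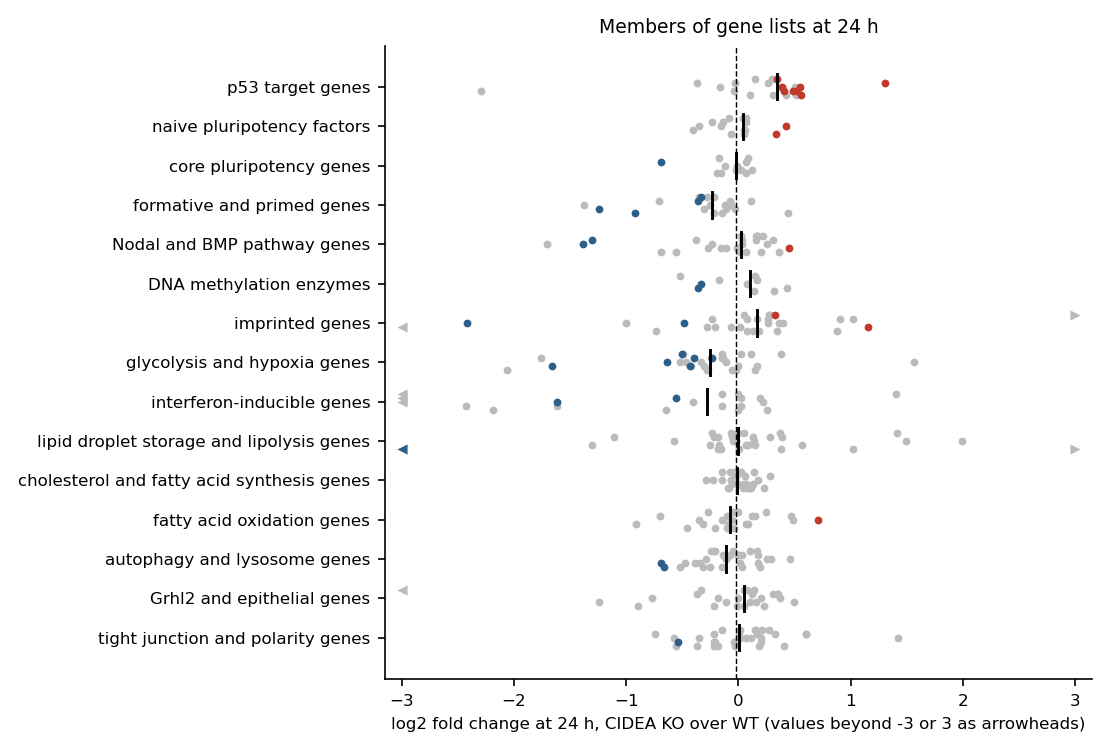
Each point is a tested member of a gene list, placed by its log2 fold change of KO over WT at 24 h. Red points were called higher, blue points lower and grey points not called, black bars are list medians, and the dashed line is the median of all genes tested. The p53 targets have a median of 0.35 with 8 called higher, the formative and primed genes -0.24 with 4 called lower, the glycolysis and hypoxia genes -0.26 with 6 called lower, and the lipid droplet genes 0.00 with *Cidea* alone called.

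The metallothioneins fell together. These small cysteine-rich proteins bind zinc and copper, and their genes are switched on by metal through the factor MTF1. *Mt1* stood at 45.5 and 43.9 CPM in KO and 95.8 and 82.1 CPM in WT, a 1.99-fold difference (-0.99 ± 0.09 SE, adjusted p = 9.47e-06). *Mt2* stood at 125 and 127 against 226 and 206 CPM, a 1.71-fold difference (-0.78 ± 0.08 SE, adjusted p = 2.12e-05). The KO libraries lay well below the WT libraries, and these 2 genes, with *Grb10*, were the only ones outside the stretch that were called in all 15 alternatives. They were chosen for mention after their values were seen. The genes are neighbours on chromosome 8, and the 250 bases before each RefSeq start site (GRCm38.p6, plus strand, chr8:94178839-94179088 for *Mt1* and chr8:94172368-94172617 for *Mt2*) are shown since the pair moved together. Capitals mark matches on either strand to the core of the metal response element, searched as TGCACNC and TGCGCNC:
Mt1: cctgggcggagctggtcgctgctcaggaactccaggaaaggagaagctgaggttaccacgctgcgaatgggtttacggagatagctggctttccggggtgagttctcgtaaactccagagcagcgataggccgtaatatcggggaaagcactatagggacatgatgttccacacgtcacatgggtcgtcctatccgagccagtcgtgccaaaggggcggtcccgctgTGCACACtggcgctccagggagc
Mt2: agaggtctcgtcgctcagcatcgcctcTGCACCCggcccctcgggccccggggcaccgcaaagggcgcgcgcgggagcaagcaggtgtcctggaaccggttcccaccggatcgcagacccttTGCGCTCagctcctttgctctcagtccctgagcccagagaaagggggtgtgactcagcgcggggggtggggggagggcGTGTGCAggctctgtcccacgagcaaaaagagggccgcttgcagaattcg
The *Mt1* window held 1 match and the *Mt2* window 3, where 21.4% of 32851 promoter windows of this length held at least 1 and 1.26% at least 3. A match is a description of the letters only. Bases outside these windows, among them those after the annotated start sites, were not searched, so the counts do not describe the whole promoters.

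Some enzymes of glycolysis were called lower, by modest amounts. Of 30 tested genes of glycolysis and the hypoxia response 6 were called lower (20.0%, against 1.02% of all genes) and none higher, and the median was -0.26. *Tpi1*, which interconverts the triose phosphates, stood at 191 and 200 CPM in KO and 277 and 276 CPM in WT (-0.50 ± 0.09 SE, adjusted p = 0.00366). *Pgk1*, the first ATP-yielding kinase of the pathway, stood at 387 and 397 against 533 and 528 CPM (-0.44 ± 0.07 SE, adjusted p = 0.00232), and *Aldoa*, the aldolase, at 853 and 822 against 1107 and 1094 CPM (-0.39 ± 0.07 SE, adjusted p = 0.0028). For these 3 enzymes the replicates were close and the groups did not overlap. *Eno1*, the enolase, stood at 1176 and 1179 against 1395 and 1387 CPM and lost its call without KO replicate 1 (adjusted p = 0.0373 with it and 0.121 without it). *Egln3*, a prolyl hydroxylase that is induced in hypoxia, stood at 1.93 and 2.41 against 8.17 and 5.63 CPM (adjusted p = 0.00945 with KO replicate 1 and 0.0533 without it). *Hk1*, the entry hexokinase, was also called, but lies on the chromosome 10 stretch. *Gapdh* (-0.06 ± 0.05 SE), *Ldha* (-0.02 ± 0.07 SE) and the glucose transporter *Slc2a1* (0.15 ± 0.08 SE) did not pass. *Ldhb*, the other lactate dehydrogenase subunit, is not among the called list members and was chosen after its values were seen. It fell from 202 and 219 CPM in WT to 144 and 149 CPM in KO (-0.52 ± 0.08 SE, adjusted p = 0.00128). The count for the list was 6 without KO replicate 1, 0 without WT replicate 1 and 3 without WT replicate 2. Several of these enzymes have near-identical processed copies in the genome that share reads, which leaves their values uncertain. The upstream 250 bases of *Pgk1* (RefSeq, GRCm38.p6, plus strand, chrX:106186850-106187099) are shown with matches in capitals to ACGTG, the core bound by hypoxia-inducible factors, on either strand:
Pgk1: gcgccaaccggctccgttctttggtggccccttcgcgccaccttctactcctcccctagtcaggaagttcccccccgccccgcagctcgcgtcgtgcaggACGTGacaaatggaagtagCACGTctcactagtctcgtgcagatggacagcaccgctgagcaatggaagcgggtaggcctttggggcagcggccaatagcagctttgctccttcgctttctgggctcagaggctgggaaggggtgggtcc
The *Pgk1* window held 2 matches, which lie apart. At least 2 were held by 6.81% of promoter windows, a share that includes windows with a single CACGTG, since that counts as 2. The window of *Tpi1* held 0, and the 3 annotated windows of *Aldoa*, of which 2 overlap, held 0, 1 and 1. The 3 windows of *Eno1* held 0, and that of *Egln3* held 1.

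Several interferon-inducible genes were lower. *Tgtp1*, a GTPase induced by interferon gamma, had no count in either KO library and 126 and 109 counts (3.75 and 3.07 CPM) in the WT libraries, at least 38.2-fold lower (adjusted p = 6.81e-05) and called whichever library was left out. It has a near-identical neighbour, so that the split of reads between the pair is uncertain. Of the 20 tested members of the interferon list, which does not hold *Tgtp1*, 2 were called lower (10.0%, against 1.02% of all genes tested) and none higher, with a median of -0.28. Without KO replicate 1 there were 3, with a median of -0.42. *Ifitm1*, a membrane protein that restricts virus entry, stood at 116 and 107 CPM in KO and 165 and 164 CPM in WT (-0.56 ± 0.10 SE, adjusted p = 0.00705). *Igtp*, another of the GTPases, stood at 1.35 and 2.23 against 4.58 and 6.41 CPM and lost its call without KO replicate 1 (adjusted p = 0.0315 with it and 0.147 without it). *Irf1*, the regulator of many of these genes, stood at 57.6 and 37.9 against 64.5 and 61.9 CPM and passed only without KO replicate 1 (adjusted p = 0.241 with it and 0.0027 without it). *Stat2*, a signal transducer of the interferon receptors, did not pass (-0.15 ± 0.15 SE). Without WT replicate 1 or WT replicate 2 no member of the list was called.

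Targets of p53 were higher in KO spheroids. Of 23 tested, 8 were called higher (34.8%, against 0.448% of all genes) and none lower, and the list's median was 0.35 against -0.02 for all genes. *Perp*, a membrane protein of desmosomes, stood at 27.7 and 22.4 CPM in KO and 8.77 and 11.5 CPM in WT, a 2.47-fold rise (1.30 ± 0.19 SE, adjusted p = 0.000945) that was called whichever library was left out. *Trp53inp1*, a stress protein that feeds back on p53, stood at 196 and 194 against 125 and 141 CPM (0.55 ± 0.08 SE, adjusted p = 0.00111), and *Zmat3*, an RNA-binding protein, at 113 and 139 against 86.9 and 88.3 CPM (0.52 ± 0.10 SE, adjusted p = 0.007). *Ccng1*, a cyclin G, stood at 393 and 418 against 299 and 323 CPM (adjusted p = 0.0167). *Mdm2*, the ubiquitin ligase that holds p53 down, stood at 135 and 143 against 109 and 102 CPM (0.40 ± 0.08 SE, adjusted p = 0.0107). With average transcript lengths as offsets its value turned to -0.04 (adjusted p = 0.944), and its TPM, 76.1 and 89.6 in KO and 95.5 and 71.2 in WT, overlapped between the groups. *Cdkn1a*, the cell cycle inhibitor p21, stood at 39.2 and 31.7 against 23.8 and 24.4 CPM, and its call was lost without KO replicate 1 (adjusted p = 0.0459 with it and 0.307 without it), as were those of *Aen* (0.125) and *Plk2* (0.138). *Bax* (0.10 ± 0.08 SE) and *Bbc3* (0.27 ± 0.20 SE), which drive cell death, did not pass. Of the 8 called targets only *Perp* was already called higher in KO ESCs at 0 h (log2 fold change 0.84). The number of targets called higher was 10 with DESeq2, 2 with transcript lengths as offsets and 0 when only the 24 h libraries were fitted. The count was 5 without KO replicate 1, 10 without KO replicate 2, 1 (*Perp*) without WT replicate 1 and 2 without WT replicate 2.

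The remaining genes with large falls had varied roles. *Wt1*, the zinc finger factor of kidney and gonad, stood at 2.34 and 1.76 CPM in KO and 11.9 and 8.35 CPM in WT, a 4.93-fold difference (-2.30 ± 0.25 SE, adjusted p = 4.67e-05). *Pnma5*, an X-linked gene related to retrotransposon Gag proteins, stood at 2.58 and 3.50 against 11.8 and 13.4 CPM (-2.05 ± 0.30 SE, adjusted p = 0.000949). *Lgals9*, a sugar-binding galectin, stood at 1.49 and 1.91 against 5.65 and 7.79 CPM (adjusted p = 0.00363), and *Ctsc*, a lysosomal protease, at 2.28 and 2.09 against 7.01 and 4.53 CPM (adjusted p = 0.0117). The call of *Lgals9* was lost without WT replicate 2 (adjusted p = 0.0606) and that of *Ctsc* without WT replicate 1 (0.276). *Elmo1*, which with a Dock protein activates Rac, stood at 7.44 and 9.20 against 19.9 and 20.3 CPM, a log2 fold change of -1.27 that became -0.59 with transcript lengths as offsets (adjusted p = 0.000949 and 0.469). *Steap2*, a metal reductase, stood at 7.38 and 14 against 31.0 and 23.7 CPM, *Kirrel2*, an immunoglobulin-type adhesion protein, at 4.95 and 9.05 against 16.9 and 15.6 CPM, and *Accsl* at 4.01 and 7.99 against 18.0 and 16.6 CPM. For these 3 genes KO replicate 1 was the lowest library, and the log2 fold change without it was -0.97, -0.84 and -1.11, smaller than with it (-1.36, -1.21 and -1.52), but still called (adjusted p = 0.0369, 0.0328 and 0.029). None of the 3 was called without WT replicate 1 (adjusted p = 0.191, 0.0968 and 0.0945). *Ptch1*, the Hedgehog receptor, was chosen after its values were seen. It stood at 47.9 and 55.5 against 95.3 and 94.7 CPM (-0.88 ± 0.11 SE, adjusted p = 0.000238), but at -0.14 with transcript lengths as offsets (adjusted p = 0.889).

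Rises were fewer and smaller, with a median log2 fold change of 0.57 over the 38 genes called higher with and without KO replicate 1, against -0.78 over the 61 called lower. Only 3 of the 38 exceeded 2-fold. *Aass*, the first enzyme of lysine breakdown, stood at 11.1 and 14.4 CPM in KO and 5.17 and 6.27 CPM in WT (1.16 ± 0.27 SE, adjusted p = 0.033). *Tgfb1i1*, a focal adhesion protein of the paxillin family, stood at 30.7 and 41.5 against 19.3 and 17.9 CPM (0.96 ± 0.20 SE, adjusted p = 0.0155). *Klf6*, a Krüppel-like factor induced by injury and growth signals, stood at 120 and 106 against 65.0 and 69.0 CPM (0.75 ± 0.11 SE, adjusted p = 0.000764), and *Car2*, the main cytosolic carbonic anhydrase, at 164 and 162 against 105 and 93.8 CPM (0.71 ± 0.12 SE, adjusted p = 0.00319). *Atp9a*, a phospholipid flippase, *Kcnj3*, a potassium channel, *Zfp365* and *Rnf169*, a ubiquitin-binding protein of the DNA damage response, rose by 0.78, 0.75, 0.75 and 0.68 on the log2 scale. Of these 8 genes, *Klf6*, *Car2* and *Rnf169* kept their call without WT replicate 1 and *Klf6* alone without WT replicate 2. *Jam2*, an adhesion molecule of tight junctions, and *Epha4*, an ephrin receptor, were called whichever library was left out, and were chosen for that after their values were seen. *Jam2* stood at 365 and 406 CPM in KO and 248 and 263 CPM in WT (0.59 ± 0.09 SE, adjusted p = 0.000945), and *Epha4* at 117 and 123 against 82.7 and 81.9 CPM (0.55 ± 0.09 SE, adjusted p = 0.00236).

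On chromosome 10 from 31.3 to 63.4 Mb (GRCm38) the KO was lower gene after gene. This stretch had been picked from earlier results of these data for its low values, which are therefore a description. Of 174 tested genes there, 59 (33.9%) were called lower and none higher, 86.8% had a log2 fold change below 0, and the median was -0.63, against -0.02 for the 656 tested genes elsewhere on the chromosome. It was -0.59 without KO replicate 1. Taken by library, the median over the stretch was -0.73 in KO replicate 1 and -0.54 in KO replicate 2 relative to the WT mean. It was -0.63 in ESCs at 0 h and -0.62 at 48 h, so that the level at 24 h was not particular to the spheroids of that time. Among the genes with the largest change there were *Anapc16*, a subunit of the anaphase-promoting complex, at 5.65 and 12.9 CPM in KO and 25.0 and 24.6 CPM in WT, *H2afy2*, a macroH2A histone, at 13.4 and 24.1 against 45.7 and 40.7 CPM, and *Spock2*, a matrix proteoglycan, at 12.2 and 15.1 against 30.6 and 26.8 CPM. Of the genes of the lists, *Hk1*, *Atg5*, *Lin28b* and *Prdm1* were called lower within the stretch. *Atg5*, which is needed to build autophagosomes, stood at 26.7 and 27.7 against 44.7 and 41.4 CPM (-0.66 ± 0.14 SE, adjusted p = 0.0153, and 0.0551 without KO replicate 1). *Atg5* and *Hexa*, both lower, were the only ones called of 31 tested autophagy and lysosome genes (6.45%, against 1.02% of all genes tested). Neither kept its call without KO replicate 1.

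Some calls rested on KO replicate 1. Outside the stretch 97 of the 196 genes were no longer called without it, all with the same sign. The largest above the level minimum were *Igsf23*, at 1.17 and 3.23 CPM in KO and 11.7 and 7.26 CPM in WT (adjusted p = 0.0244 with it and 0.11 without it), and *Cd80*, a co-stimulatory ligand of T cells, at 15.0 and 6.82 against 3.33 and 3.40 CPM (adjusted p = 0.0498 and 0.411). In *Cd80* KO replicate 1 alone was far above the rest. *Ankrd34a* stood at 2.69 and 4.17 against 10.8 and 9.68 CPM and *Rassf4* at 2.31 and 4.35 against 8.74 and 9.48 CPM, with the KO libraries apart from WT in each. The missing low counts of this library and the loss of calls were seen together. Their part in these results was not tested.

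The difference at 24 h was set against the same difference at 0 h and 48 h with an interaction test. All 3 differences of a gene come from the same clone but from separate libraries. Outside the stretch, 186 of the 196 genes had the same sign at 0 h, where 54 of them were also called, and 173 had the same sign at 48 h, where 33 were called. Of all genes tested, 220 (1.26%) were called at 0 h and 117 (0.671%) at 48 h. Only 2 genes (0.0115%) differed between 24 h and 0 h, with 1029 at an unadjusted p under 0.05. *Pou3f1* stood at 5.08 and 3.99 CPM in KO and 3.30 and 2.28 CPM in WT ESCs, so that the genotype difference was 0.70 at 0 h and -1.24 at 24 h (difference -1.94 ± 0.24 SE, adjusted p = 0.00292), and by 48 h it was at 115 and 104 against 133 and 147 CPM. *Grhl2*, a factor that drives epithelial genes, stood at 8.90 and 7.81 against 19.6 and 19.7 CPM at 0 h and at 97.7 and 86.3 against 98.4 and 101 CPM at 24 h, so that a difference of -1.23 was down to -0.11 (change 1.12 ± 0.15 SE, adjusted p = 0.00441). Both were also called without KO replicate 1.

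Between 24 h and 48 h 4 genes differed (0.023%), with 894 at an unadjusted p under 0.05. *Lefty1* stood at 69.8 and 75.6 CPM in KO and 93.8 and 85.7 CPM in WT at 48 h, so that its difference went from -1.39 to -0.30 (change -1.08 ± 0.17 SE, adjusted p = 0.0252). *Wt1* stood at 26.4 and 24.6 against 30.3 and 30.8 CPM at 48 h, where its difference was -0.26 (change -2.04 ± 0.34 SE, adjusted p = 0.0356). *Tgtp1* stood at 6.56 and 3.78 against 6.38 and 7.92 CPM at 48 h, having had no count in the KO at 24 h (adjusted p = 0.0116). *Gm7332* was erratic, at 3.09 and 0.534 CPM in WT and none in KO at 24 h but at 5.92 and 6.03 CPM in KO and none in WT at 48 h, and this call was lost without KO replicate 1 (adjusted p = 0.168). These counts moved with the fit. Without KO replicate 1 there were 5 calls against 0 h and 29 against 48 h, without KO replicate 2 there were 1024 and 821, without WT replicate 1 there was 1 against each time, and without WT replicate 2 there were 5 and 6. Outside the stretch 22 genes were called at all 3 times in the same direction, among them *Grb10*, *Mt1*, *Mt2*, *Klf6*, *Car2*, *Nnat*, *Gnas* and *Peg3*. *Lpl* was called at 24 h alone, with a difference of 0.35 at 0 h and 0.32 at 48 h that was not shown to differ from that at 24 h.

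**Figure D5:**
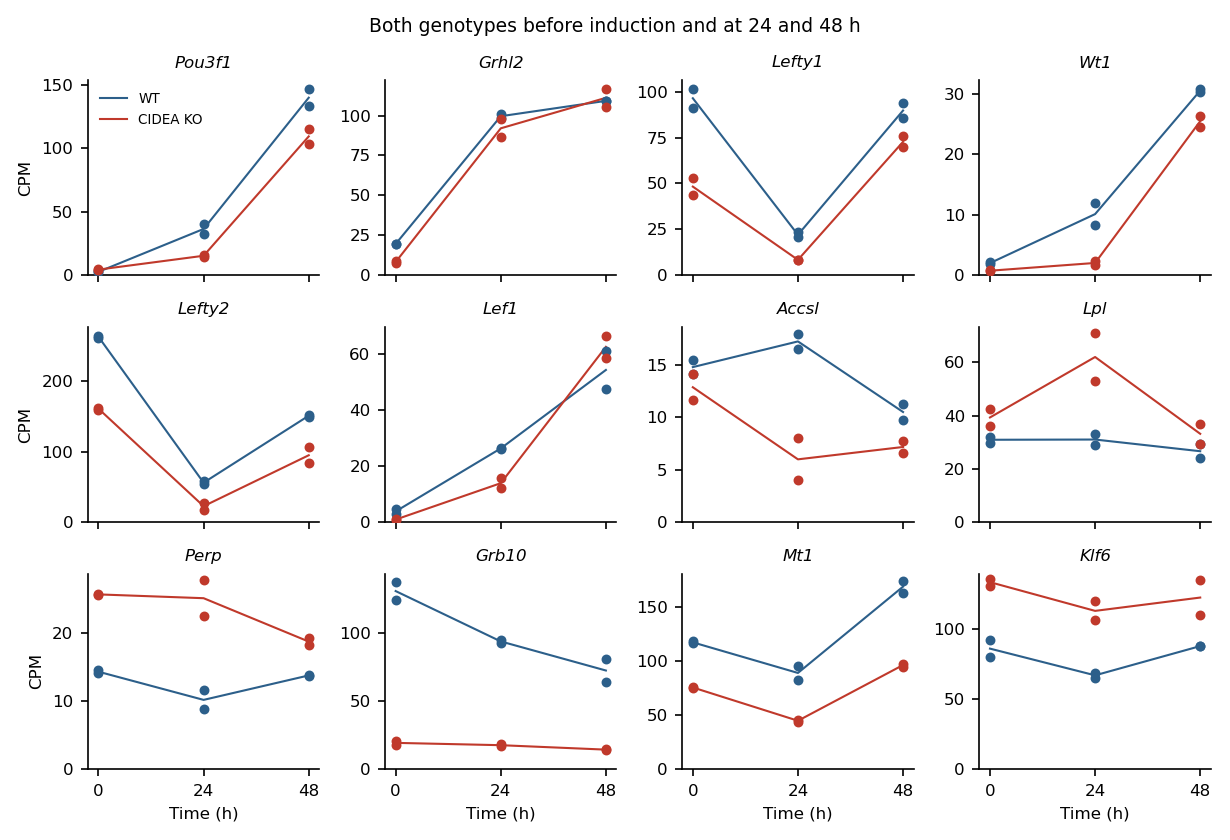
Each panel gives the CPM of a gene in each of the 12 libraries at 0 h (ESCs), 24 h and 48 h (spheroids), with WT in blue, KO in red and lines through the group means, on a linear axis from 0. *Pou3f1* in KO stood above WT at 0 h and below it at 24 h, *Grhl2* in KO reached WT by 24 h, *Lefty1* and *Wt1* were close to WT by 48 h, and *Grb10*, *Mt1* and *Klf6* kept their distance at every time.

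Among groups tied to spheroid architecture few or no genes were called, where 0.448% of all genes tested were called higher and 1.02% lower. None of 25 tested epithelial genes passed edgeR's test, with a median of 0.05 (-0.06 without KO replicate 1), 5 at an unadjusted p under 0.05 and 1 called by DESeq2. Of 34 genes of tight junctions and polarity only *Cgn*, the junction protein cingulin, was called, at 30.6 and 26.9 CPM in KO and 41.2 and 42.4 CPM in WT (-0.54 ± 0.13 SE, adjusted p = 0.0383). It stayed called without KO replicate 1, but not without KO replicate 2 (adjusted p = 0.0503), WT replicate 1 (0.273) or WT replicate 2 (0.193). *Podxl*, the apical sialomucin, stood at 77.7 and 86.3 against 92.8 and 97.7 CPM (adjusted p = 0.349). *Itgb1*, the beta subunit shared by laminin-binding integrins, was the only call among 24 basement membrane and integrin genes, higher at 338 and 332 against 259 and 269 CPM (0.34 ± 0.07 SE, adjusted p = 0.0155), and was not called without KO replicate 1 (0.0551), WT replicate 1 (0.268) or WT replicate 2 (0.083). Of 25 cell cycle and Myc genes none was called by edgeR, with a median of 0.07, 6 at an unadjusted p under 0.05 and 2 called by DESeq2, and 1 was called in each direction without KO replicate 1. Among the marker lists of other cell types, none of the tested endoderm, trophectoderm, mesoderm, neural and fibroblast markers was called by edgeR or DESeq2, with 2 in all at an unadjusted p under 0.05, and of 12 germ cell markers only *Prdm1*, from the chromosome 10 stretch, was. The summed trophectoderm markers stood at 43.8 and 33.5 TPM in KO and 31.5 and 30.0 TPM in WT, and the summed endoderm markers at 17.6 and 12.4 against 15.0 and 14.3 TPM, in each case with KO replicate 1 the highest library.

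The other lists held scattered calls, where 0.448% of all genes tested were called higher and 1.02% lower. Of 26 Wnt pathway genes *Lef1* alone was called, and 2 were without KO replicate 1. Of 23 genes of FGF and ERK feedback none was called by edgeR, with a median of -0.08, 8 at an unadjusted p under 0.05 and 1 called by DESeq2, while without KO replicate 1 edgeR called 2 lower and the median was -0.25. Of 15 genes of the LIF receptor and STAT3, *Klf4* was called higher and *Pim1*, a survival kinase, lower, at 25.5 and 27.3 CPM in KO and 41.4 and 37.1 CPM in WT (-0.57 ± 0.13 SE, adjusted p = 0.0224), with the call lost without KO replicate 1 (0.101), WT replicate 1 (0.355) or WT replicate 2 (0.069). Of 16 enzymes of threonine, glycine and one-carbon metabolism 2 were called lower (12.5%, against 1.02% of all genes tested), and the median was -0.03. One was *Gldc*, the glycine decarboxylase, which stood at 222 and 244 CPM in KO and 315 and 328 CPM in WT (-0.47 ± 0.08 SE, adjusted p = 0.00315). Its call was lost without WT replicate 2. The other was *Gcat*, at 36.9 and 40.1 against 60.3 and 54.3 CPM (-0.57 ± 0.11 SE, adjusted p = 0.0104), whose call was lost without KO replicate 1 or WT replicate 1. Of 24 stress response genes *Atf4*, the main factor of the integrated stress response, was called higher at 109 and 96.5 against 83.8 and 79 CPM (0.34 ± 0.08 SE, adjusted p = 0.0491), and this was lost without KO replicate 1 (adjusted p = 0.312). Of 10 DNA methylation enzymes *Dnmt3a* and *Dnmt3b* were the calls, with a list median of 0.11, and neither was called without WT replicate 1 (adjusted p = 0.146 and 0.231). Genes that mark the rare two-cell-like state of ESC cultures were low in all libraries. Their summed level was 3.3 and 2.08 TPM in KO and 9.54 and 11 TPM in WT. None of the 11 that could be tested was called by edgeR, with 4 at an unadjusted p under 0.05 and 1 called by DESeq2, and in 8 both KO libraries lay below both WT libraries, as in 21.4% of all genes tested.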

How the data were processed

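Messenger RNA of WT and CIDEA KO ESCs and spheroids was sequenced in 12 libraries (6 groups of 2). Per the labels and the study's methods, the authors used Trimmomatic 0.33 for trimming and kallisto 0.43.1 for quantification, and deposited an estimated count per transcript, unscaled for depth. The authors also deposited TPM, scaled by effective transcript length and depth. The transcript release is not given in the sources used here. Where transcripts overlap or have near-identical copies, estimated counts are split by a model.

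Estimated counts were summed per gene (GENCODE annotation of GRCm38), rounded, filtered with filterByExpr, scaled by TMM and tested with edgeR 4.0.16 in R 4.3.3 (robust quasi-likelihood, one mean per group over all 12 libraries, Benjamini-Hochberg adjustment over 17424 genes, threshold 0.05). All tests were two-sided. CPM are TMM-scaled. The same contrast was refitted without KO replicate 1, and the 24 h difference was tested against those at 0 h and 48 h. Counts outside chromosome 10 from 31.3 to 63.4 Mb kept the adjustment over all genes. Floors of 3 counts and count ratio intervals cover counting error only. Promoter windows came from RefSeq (GRCm38.p6). The fit was tested on simulated counts, in which no library was made short of low counts as KO replicate 1 is.

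The members and the 29 gene lists were chosen with earlier results of these data known. Genes were named by a rule: outside the stretch, with both fits calling the gene in the same direction, groups apart and an average log2 CPM of 1 or more, the 12 largest rises and 12 largest falls, by the same conditions the 4 largest in the stretch, the 6 largest lost without KO replicate 1, called list members, genes the study discusses, and genes called in an interaction. One gene that this rule names is not reported here. Others were chosen after their values were seen, also those list members given to show what did not pass. Alternatives (15) were leaving out each library, DESeq2 1.42.0 and its size factors, 2 count filters, the 24 h libraries alone, a replicate block, transcript length offsets, limma 3.58.1 on log2(TPM + 1) and log2(TPM + 0.1), voom with library weights, and genes detected as a covariate.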

Additional observations from a re-analysis of the deposited data

Results flagged for a closer look

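The difference between KO and WT spheroids at 24 h was set apart from that at another time by the interaction test in 6 genes. Against ESCs at 0 h, the log2 difference was lower by 1.94 in *Pou3f1* (24 h minus 0 h, -1.94) and higher by 1.12 in *Grhl2*. Against 48 h, it was -1.08 in *Lefty1* and -2.04 in *Wt1*. It was -9.31 in *Tgtp1* and -19.46 in *Gm7332*, where the size depends on the prior count since one group had no count, and it is no measure of the change. *Lefty1*, *Wt1* and *Tgtp1* were already called lower in KO ESCs at 0 h. For them the 24 h difference was not shown to differ from that at 0 h.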

How the results depend on the processing

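With 2 libraries per genotype and 1 of the KO libraries short of low counts, the number of calls depended on the fit. Of 255 calls at 24 h, the fits without 1 library gave 58 (without WT replicate 1) to 2279 (without KO replicate 2), and outside the chromosome 10 stretch, of 196, they gave 30 to 2193. In such fits the lone library is assumed to vary like the other groups. DESeq2 gave 451 and 383 calls (its adjusted p was NA for 3041 genes), no filter on low counts 615 and 548, the 24 h libraries alone 13 and 9, transcript length offsets 64 and 42, limma on log2(TPM + 1) 20 and 16, on log2(TPM + 0.1) 14 and 11, and voom with library weights 129 and 87. Of the 2 calls against 0 h and the 4 against 48 h, the fits without 1 library gave 1 to 1024 and 1 to 821, DESeq2 13 and 10, no filter 82 and 97, at least 10 counts in each library 5 and 0, length offsets 0 and 0, log2(TPM + 1) 0 and 0, log2(TPM + 0.1) 0 and 1, voom 0 and 1, and genes detected as a covariate 6 and 7. The cause was not tested. The fit of the 24 h libraries alone has fewer samples, and its common coefficient of variation between replicates was 0.397, against 0.311 over all libraries. In the voom fit the KO libraries at 24 h had weights of 0.426 and 0.425, against at least 0.877 for the others. The weights were close within every group of 2 libraries, so that they do not tell which KO library was the poorer. The main fit shares one estimate of the spread among all groups, so that it assumes the 24 h groups vary like the rest.

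Of the 95 named genes that were called, all 95 kept their call in DESeq2, 71 without KO replicate 1, 27 without WT replicate 1, 44 without WT replicate 2 and 30 with length offsets. *Mdm2* alone changed sign, to -0.037 with length offsets. Deviations of same-numbered libraries correlated at 0.0595, 0.0153 and 0.0357 over 12548 genes at 0, 24 and 48 h. With 1 deviation per gene and group, these values cannot tell whether the libraries were prepared in pairs. With the replicate block 255 genes were called, 243 of them shared with the fit without it, 195 outside the stretch, 3 against 0 h and 5 against 48 h.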
